A study of Mus musculus with 24 samples.

Results

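The cytochrome P450 genes were described across the lacrimal gland (LG), the gland that secretes the watery part of the tear film, and across spheres grown from it. Every gene whose GENCODE M21 symbol is Cyp followed by a number was taken, 97 genes of the 63862 features in the tables. The 3 Cyp26 genes and 22 pseudogenes or non-coding Cyp genes were left out. Grouped by role, 16 members acted on sterols, steroids or vitamin D, with Cyp2r1 of family 2 counted among them. Of the others 3 belonged to family 1, 48 to family 2, 9 to family 3 and 20 to family 4. The last was the orphan Cyp20a1.

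Cytochromes P450 are haem enzymes that insert an oxygen atom into their substrate. Most sit in the endoplasmic reticulum and take electrons from cytochrome P450 reductase (Por) and cytochrome b5, while the mitochondrial ones are fed by ferredoxin (Fdx1). Members of families 1 to 3 are best known for oxidising drugs, pollutants and odorants in liver, airway and nasal mucosa, members of family 4 oxidise fatty acids and eicosanoids, and the sterol and steroid enzymes carry single steps of cholesterol, bile acid, steroid hormone or vitamin D metabolism.

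All libraries came from C57BL/6 mice. The groups were adult LG, embryonic LG at E17.5 and E19.5 (E, embryonic day), with 3 libraries each, and lacrimal gland stem cell (LGSC) spheres of passage 2 at culture day 5 (2 libraries) and days 7, 10 and 14 (3 libraries each), 20 libraries in all. The spheres were grown in Matrigel from the dissociated LGs of mice 6 to 8 weeks old, in serum-free medium with EGF, FGF10, Wnt3A and the ROCK inhibitor Y-27632. The age of the adult donors of LG RNA, the sex of the donors and any pooling are not given in the sources used here, nor is it stated that replicates came from separate animals or cultures, so p-values measure the spread between these libraries only.

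The deposited values were FPKM, fragments scaled to gene length and to a library scale that the authors set. Recovered depth was 6434734 to 9258020 reads in the 20 libraries, and the reads exceeded the scale by factors of 2.667, 2.567 and 1.103 in adult LG replicates 1, 2 and 3, against 0.832 to 1.129 elsewhere. On each library's own reads the median of all features rose by 0.57, 0.52 and 0.51 (log2) in E17.5 LG, E19.5 LG and day 7 LGSCs against adult LG, where it was 0.05, 0.09 and -0.08 as deposited. Adult LG was rich in secretory transcripts (Mucl2 171251 to 807362 FPKM) while the water channel Aqp5 was only 0.472 to 0.568 FPKM. Gapdh and Epcam were listed at 0 in all 20 libraries, and therefore a 0 is called "listed at 0" here and not absence. The translation factor Eef1a1, used by every cell, was at most 0.563 FPKM in these libraries and 3461 FPKM in a passage 10 LGSC library with a table of its own, so that a value above 0 but under 1 FPKM is also no measure of little RNA. Krt14, a stem cell marker in the paper, was 0.236 to 17.8 FPKM in the 20 libraries and 7065 FPKM in the passage 10 library. Values of a few FPKM may therefore carry the same limit. Mucl2 was 58.3, 45.7 and 40.4 FPKM in LGSC day 5 replicate 2, day 10 replicate 3 and day 14 replicate 3, and at most 0.179 FPKM in the other LGSC libraries. In E17.5 replicate 1 it was 46.0 FPKM. Xist was 0.116 and 0.0704 FPKM in adult replicates 1 and 2 and 74.4 FPKM in adult replicate 3, which had 0 FPKM of 4 Y-linked transcripts. In the embryonic libraries it was 35.3 to 77.2 FPKM. In LGSCs it was 0.0121 to 0.0252 FPKM in replicate 1 of each day and 70.4 to 104 FPKM in the other libraries.

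Adult LG carried by far the most P450 transcript. The FPKM of the 97 members summed to 3687, 5440.3 and 6699 in adult replicates 1, 2 and 3, to 60.9 to 89.5 at E17.5, 212 to 251 at E19.5 and 38.4 to 103 in the LGSC libraries. Cyp2f2, Cyp2a5, Cyp2b10 and Cyp2j13 made up 97.6%, 97.9% and 98.4% of the adult sums. As a share of recovered reads, the members took 0.314%, 0.459% and 1.25% in adult LG and 0.0152% to 0.0620% in the other libraries. In bulk RNA, fewer cells of a type and less RNA per cell cannot be told apart.

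**Figure D1:**
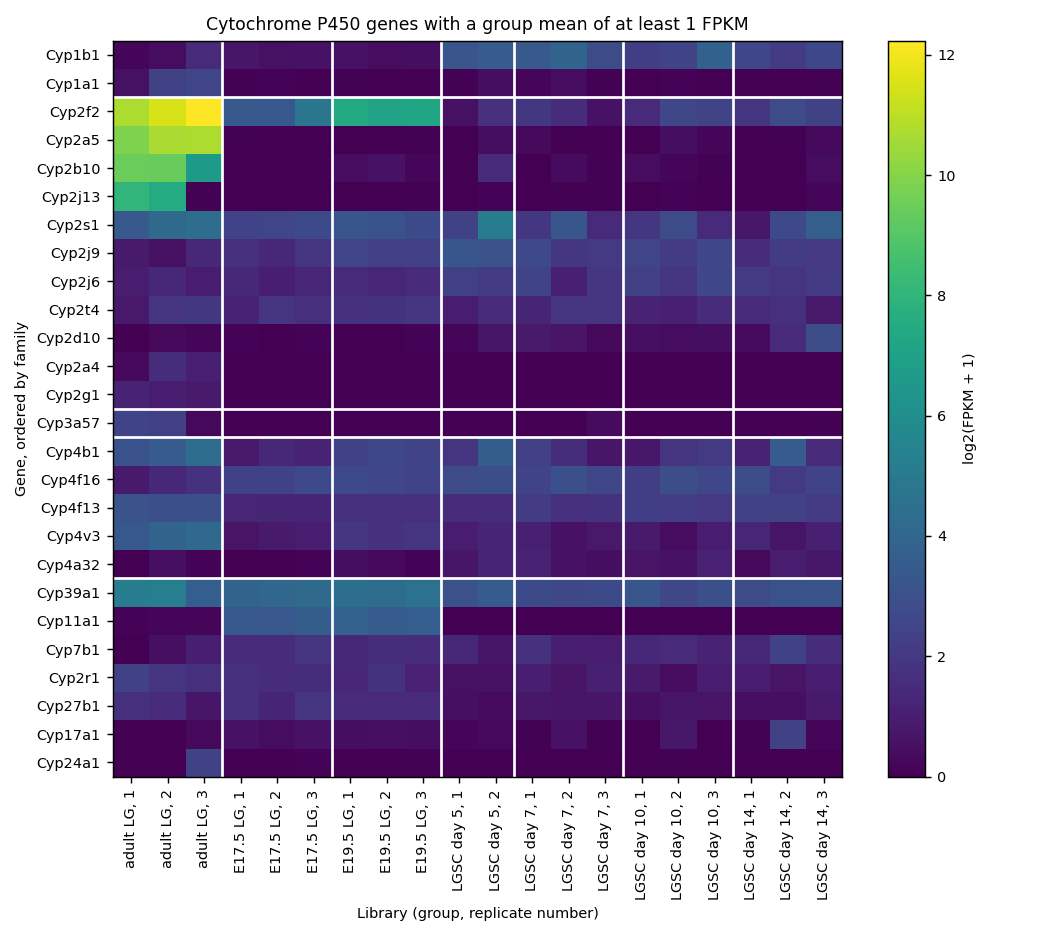
Heat map of log2(FPKM + 1) for the 26 members that averaged 1 FPKM or more in any group (rows, by family and then by mean level) in the 20 libraries (columns, by group and replicate number). The bright block at Cyp2f2, Cyp2a5, Cyp2b10 and Cyp2j13 is found in the adult LG columns, with Cyp2j13 dark in adult replicate 3, and Cyp11a1 stands out in the embryonic columns.

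Of the 97 members, 26 were listed at 0 in all 20 libraries, 45 were above 0 but reached a mean of 1 FPKM in no group, and 26 reached it in at least 1 group. The number averaging 1 FPKM or more was 19 in adult LG, 13 at E17.5, 14 at E19.5, and 13, 11, 11 and 14 in LGSCs at days 5, 7, 10 and 14. A mean of at least 10 FPKM was reached by 8 members in adult LG, 2 in E17.5 LG, 3 in E19.5 LG, 1 in day 5 LGSCs and 0 in older spheres. The 8 members with at least 1 FPKM in every group were spread over families 2 and 4 and the sterol enzymes, and Cyp39a1, Cyp2s1, Cyp4f16 and Cyp4f13 were among them.

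The large drug-metabolising subfamilies of the liver were mostly listed at 0 or under 1 FPKM, which in these tables does not show that they were little expressed. None of the 15 Cyp2c members exceeded 0.371 FPKM in any library, and 10 of them were listed at 0 throughout. Among the 9 Cyp3a members only Cyp3a57 reached a group mean of 1 FPKM, and 6 were listed at 0 throughout. Cyp2d10 was the only one of 8 Cyp2d members to reach 1 FPKM in a group, through 6.50 FPKM in LGSC day 14 replicate 3. Of the 8 Cyp4a members, which oxidise fatty acids, Cyp4a32 alone did so, with a mean of 1.06 FPKM in day 5 LGSCs, and it shares 97.2% of its coding bases with Cyp4a10, so reads may have been split between them. Of 6 hepatocyte markers none reached a mean of 1 FPKM in adult LG, and their sum was 0.218 to 0.439 FPKM.

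Of the 19 members that averaged 1 FPKM or more in adult LG, 7 lay in 1 run of genes. In GENCODE M21, a run of 13 members on chromosome 7, with gaps of at most 500000 bases, held these 7, Cyp2f2, Cyp2a5 and Cyp2b10 among them. The run of 8 Cyp2j genes on chromosome 4 held Cyp2j13 and 1 further member at that level, whereas the 14 Cyp2c genes on chromosome 19 held none.

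Cyp2a5, which hydroxylates coumarin and nicotine, has a near-identical neighbour, Cyp2a4, a steroid hydroxylase. Their coding sequences of 1482 bases differed at 23 positions (98.4% identical). The 250 bases before their RefSeq start sites (GRCm38.p6, plus strand, chr7:26835089-26835338 and chr7:26306942-26307191) are shown because they are almost the same although the levels were not. Over 251 aligned positions they had 4 mismatches and 2 gap positions, which are in capitals (97.6% identical), and both held the TATA box TATAAA, at -29 in Cyp2a5.
Cyp2a5: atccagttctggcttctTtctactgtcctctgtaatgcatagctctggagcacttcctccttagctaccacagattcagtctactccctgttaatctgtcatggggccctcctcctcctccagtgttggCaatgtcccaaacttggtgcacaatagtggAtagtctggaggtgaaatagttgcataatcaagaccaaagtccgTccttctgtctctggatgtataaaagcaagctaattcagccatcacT
Cyp2a4: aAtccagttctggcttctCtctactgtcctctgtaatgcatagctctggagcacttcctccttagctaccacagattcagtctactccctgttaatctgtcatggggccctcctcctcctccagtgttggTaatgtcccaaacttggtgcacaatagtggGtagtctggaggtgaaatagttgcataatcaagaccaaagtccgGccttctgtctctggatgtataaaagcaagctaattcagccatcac

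Cyp2a5 was 927, 1627 and 1682 FPKM in adult LG replicates 1, 2 and 3 and at most 0.376 FPKM in any of the other 17 libraries. Cyp2a4 was 0.239, 1.996 and 1.13 FPKM in adult LG and listed at 0 in all others. Since the pair is so alike, Cyp2a4 is uncertain: reads of one may have been counted for the other or dropped.

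The upstream sequences of the other 3 abundant adult members are shown for comparison, with matches to a nuclear receptor half-site (AGGTCA), the AHR core (GCGTG), the CCAAT box and TATAAA, searched on both strands, in capitals. They are RefSeq sequences of GRCm38.p6 at chr7:25897408-25897657 (Cyp2b10, plus strand), chr7:27119705-27119954 (Cyp2f2, plus strand) and chr4:96077541-96077790 (Cyp2j13, minus strand).
Cyp2b10: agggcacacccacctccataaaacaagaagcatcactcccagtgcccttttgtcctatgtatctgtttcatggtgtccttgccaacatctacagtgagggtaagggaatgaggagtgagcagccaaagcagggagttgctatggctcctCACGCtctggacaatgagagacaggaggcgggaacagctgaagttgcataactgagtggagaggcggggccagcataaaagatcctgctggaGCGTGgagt
Cyp2f2: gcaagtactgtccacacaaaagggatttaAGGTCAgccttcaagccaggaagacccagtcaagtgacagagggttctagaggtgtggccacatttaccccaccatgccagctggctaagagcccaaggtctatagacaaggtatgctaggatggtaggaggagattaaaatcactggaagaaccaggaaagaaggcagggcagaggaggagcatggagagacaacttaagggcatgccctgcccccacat
Cyp2j13: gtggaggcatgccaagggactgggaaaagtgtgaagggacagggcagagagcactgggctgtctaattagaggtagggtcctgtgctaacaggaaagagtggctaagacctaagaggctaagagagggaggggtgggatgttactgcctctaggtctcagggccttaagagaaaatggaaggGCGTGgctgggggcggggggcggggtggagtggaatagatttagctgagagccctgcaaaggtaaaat

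Cyp2b10 held GCGTG at -101 and -9, Cyp2f2 held AGGTCA at -221 and Cyp2j13 held GCGTG at -68, and none of these motifs was common to all 4 abundant adult members. TATAAA was found in 36.5% of the 74 member promoters in the table and in 12.97% of all 27025 promoters of the same length. The shares were 41.9% against 34.5% for CCAAT, 23.0% against 13.8% for AGGTCA and 21.6% against 28.2% for GCGTG. A match is only a run of letters and is not evidence of a bound site.

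Cyp2f2, which activates naphthalene in club cells of the mouse airway, was the most abundant member of adult LG, at 1699.9, 2839 and 4813 FPKM (3117 ± 1575, SD, n = 3). It ranked 43rd, 22nd and 11th among all features of these libraries. Cyp2b10, the phenobarbital-inducible enzyme, was 707, 678 and 98.96 FPKM, and Cyp2j13, of the arachidonic acid epoxygenase subfamily, was 265, 184 and 0.0559 FPKM. Both were thus lowest in adult replicate 3, where Cyp2f2 was highest.

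In the embryonic libraries only Cyp2f2 of these 4 was above 1 FPKM. It was 9.77, 9.38 and 27.2 FPKM at E17.5 and 175, 141 and 144 FPKM at E19.5. In the 11 LGSC libraries it lay between 0.465 and 6.16 FPKM. Cyp2b10 was listed at 0 in the 3 E17.5 libraries and was 0.325, 0.527 and 0.121 FPKM at E19.5. Its highest LGSC value was 1.82 FPKM in day 5 replicate 2, one of the libraries that also held Mucl2, and the part of that library's adult transcripts in this value was not tested.

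**Figure D2:**
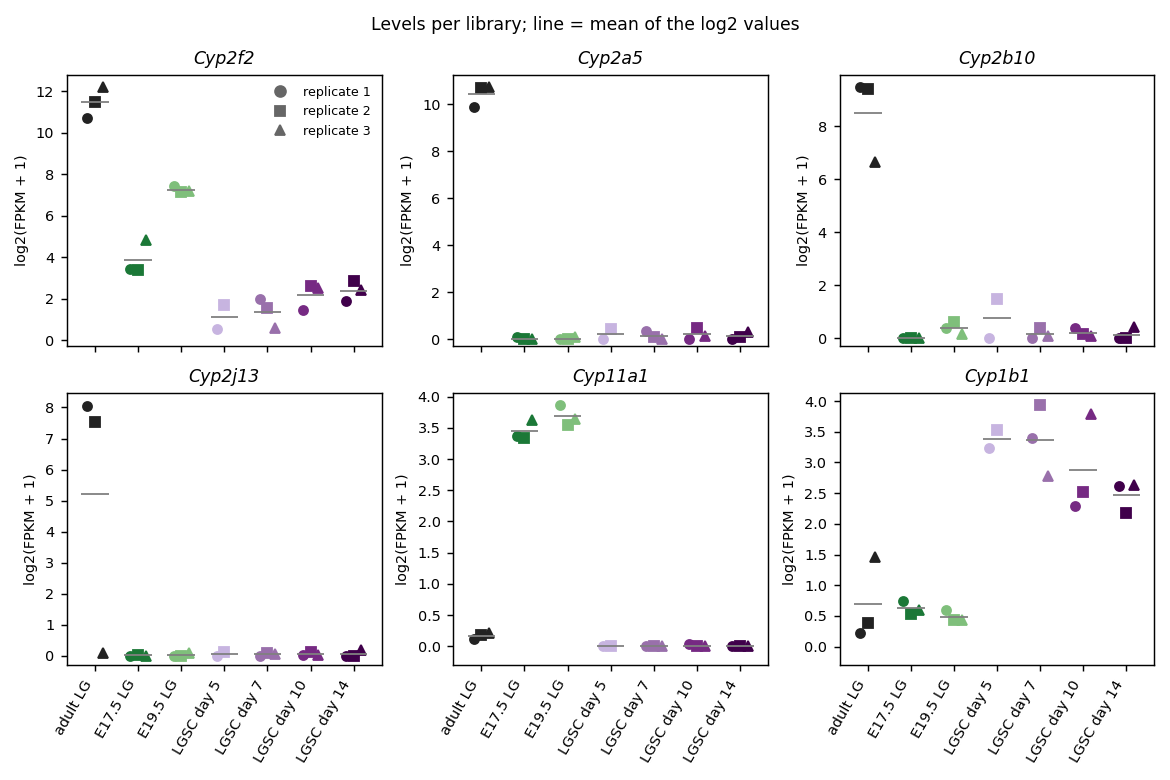
Level of 6 members as log2(FPKM + 1) in each of the 20 libraries, with symbols for the replicate number and a line at the mean of the log2 values of each group. Cyp2f2, Cyp2a5 and Cyp2b10 have all 3 adult libraries above all others, Cyp2j13 has 2 of 3 adult libraries far above the rest, Cyp11a1 is high in the 6 embryonic libraries, and Cyp1b1 is high in the LGSC libraries.

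The comparison of embryonic with adult LG asked which members differ between the developing and the mature gland. It was made with limma on log2(FPKM + 1) in 1 fit of the 9 tissue libraries, over the 18578 features with a mean of at least 0.5 FPKM, so that differences of low genes are understated. Both comparisons use the same adult libraries. Of the 97 members 21 passed the filter. Against adult LG, 4 rose and 11 fell in the E17.5 gland at an adjusted p under 0.05, beside 54.0% of all features called (29.1% higher and 24.9% lower). For the E19.5 gland the counts were also 4 and 11, beside 54.2% of all features called (30.3% higher and 23.9% lower). The median difference over the tested members was -0.60 at E17.5 and -0.56 at E19.5 (log2), against 0.05 and 0.09 over all features. On each library's own reads 6 members rose and 9 fell in the E17.5 gland and 7 rose and 7 fell in the E19.5 gland, while the features as a whole split into 8501 higher and 2165 lower, and 8081 and 2092, in place of 5405 and 4634, and 5637 and 4440.

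The 4 abundant adult members gave the largest falls. Cyp2a5 differed by -10.39 ± 0.22 (SE) at E17.5 (adjusted p = 3.9e-08) and by -10.39 ± 0.22 at E19.5 (adjusted p = 6.9e-08). For Cyp2b10 the differences were -8.51 ± 0.66 and -8.11 ± 0.66 (adjusted p = 1.7e-05 and 2.4e-05), and for Cyp2f2 they were -7.61 ± 0.46 and -4.21 ± 0.46 (adjusted p = 4.4e-06 and 0.00012). In these 3 members every embryonic library was below every adult library.

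Cyp2j13 differed by -5.21 ± 1.77 at E17.5 and -5.20 ± 1.77 at E19.5 (adjusted p = 0.035 and 0.036). The embryonic values, at most 0.0544 FPKM, lay just below the 0.0559 FPKM of adult replicate 3. The call was lost at both stages when any 1 library other than adult replicate 3 was left out (adjusted p 0.052 to 0.116), and with limma-voom on recovered reads (adjusted p = 0.27 at both).

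Family 4 gave 3 falls and a rise. Cyp4v3, a fatty acid hydroxylase, was 9.36, 14.0 and 17.0 FPKM in adult LG, 0.540, 0.845 and 0.952 at E17.5 and 2.85, 2.40 and 2.74 at E19.5. Its differences were -2.99 ± 0.21 and -1.95 ± 0.21 (adjusted p = 9.8e-06 and 0.00011), with no overlap. Cyp4b1, which oxidises fatty acids and furans and is abundant in lung, was 7.53, 10.5 and 19.3 FPKM in adult LG, 0.798 to 1.56 at E17.5 and 4.31 to 5.23 at E19.5 (-2.53 ± 0.30 and -1.13 ± 0.30, adjusted p = 0.00016 and 0.011). Cyp4f13 was unusually even within groups, at 7.72, 6.82 and 7.01 FPKM in adult LG, 1.47, 1.43 and 1.43 at E17.5 and 2.27, 2.24 and 2.26 at E19.5 (-1.74 ± 0.11 and -1.33 ± 0.11, adjusted p = 6.5e-06 and 3.2e-05). Cyp4f16, like Cyp4f13 of the leukotriene and fatty acid hydroxylase subfamily, went the other way, from 0.824, 1.57 and 2.30 FPKM in adult LG to 4.26 to 5.51 at E17.5 and 4.52 to 5.42 at E19.5 (1.19 ± 0.22 and 1.27 ± 0.22, adjusted p = 0.0018 and 0.0014). Scaled to own reads, Cyp4b1 and Cyp4f13 were no longer called at E19.5 (-0.36 and -0.58, adjusted p = 0.57 and 0.087).

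Among the xenobiotic enzymes of families 1 to 3, Cyp1a1, a classical target of the aryl hydrocarbon receptor, was 0.446, 4.07 and 4.85 FPKM in adult LG and at most 0.0745 FPKM in the embryonic libraries (-1.75 ± 0.45 and -1.79 ± 0.45, adjusted p = 0.011 and 0.00995). Cyp3a57 was 4.57, 3.95 and 0.197 FPKM in adult LG and listed at 0 in all 6 embryonic libraries (-1.68 ± 0.50 at both stages, adjusted p = 0.020 and 0.021). Leaving out adult replicate 1 or 2, or any library of the embryonic stage compared, ended the Cyp3a57 call (adjusted p 0.053 to 0.072). Cyp2s1, an epithelial enzyme of family 2, was 9.74, 17.6 and 19.6 FPKM in adult LG, 4.45 to 5.75 at E17.5 and 5.78 to 8.73 at E19.5 (-1.42 ± 0.26 and -0.96 ± 0.26, adjusted p = 0.0018 and 0.013), a fall that was not called on own reads (adjusted p = 0.34 and 0.79) nor, at E19.5, without E19.5 replicate 3 (adjusted p = 0.052). Cyp2j9 was higher in the embryo. It was 0.870, 0.473 and 1.61 FPKM in adult LG, 2.23, 1.62 and 2.62 at E17.5 and 4.80, 4.03 and 4.01 at E19.5 (0.70 ± 0.22 and 1.45 ± 0.22, adjusted p = 0.028 and 0.00079). Its E17.5 call was lost without adult replicate 1 or 2 or E17.5 replicate 1 or 3 (adjusted p 0.061 to 0.095).

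Cyp11a1, the mitochondrial enzyme that cleaves the cholesterol side chain at the start of steroid synthesis, gave the largest rise. It was 0.0863, 0.131 and 0.164 FPKM in adult LG, 9.36, 9.11 and 11.3 at E17.5 and 13.5, 10.7 and 11.5 at E19.5. The differences were 3.27 ± 0.14 and 3.51 ± 0.14 (adjusted p = 7.3e-07 and 6.3e-07). The 2 embryonic stages overlapped and lay far above adult LG, and in LGSCs it was listed at 0 in 10 of 11 libraries. Mesenchymal markers moved in the same direction, their sum over 6 genes being 164 to 323 FPKM in adult LG, 4705 to 5680 in the embryonic libraries and at most 1.41 in LGSCs. Their part in the Cyp11a1 result was not tested.

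Other sterol enzymes changed less. Cyp7b1, an oxysterol hydroxylase, was 0, 0.437 and 1.03 FPKM in adult LG, 1.72, 1.92 and 2.54 at E17.5 and 1.64, 2.003 and 1.94 at E19.5 (1.09 ± 0.25 and 1.00 ± 0.25, adjusted p = 0.0055 and 0.0086). Cyp39a1, which hydroxylates an oxysterol of the brain, was the fifth most abundant member of adult LG at 34.4, 37.2 and 11.5 FPKM and the most abundant one at E17.5 (14.6, 15.5 and 17.8 FPKM). With -0.60 ± 0.38 at E17.5 and -0.26 ± 0.38 at E19.5 it was not called (adjusted p = 0.22 and 0.60). Without adult replicate 3 it was called lower at both stages (-1.12 and -0.78, adjusted p = 8.2e-05 and 0.00063), and on own reads it was called higher at E19.5 (0.61, adjusted p = 0.014), so its direction depends on the scale. Cyp2r1 and Cyp27b1, which activate vitamin D in consecutive steps, were not called at either stage (adjusted p 0.068 to 0.60). Cyp2r1 was called lower at E19.5 with limma-voom, with or without the block, in 1 fit of all 20 libraries, and without adult replicate 3 or E19.5 replicate 2 (adjusted p 0.025 to 0.044). Cyp27b1 was called higher on own reads at both stages (0.88 and 0.67, adjusted p = 0.0041 and 0.017). The last called member, Cyp46a1, lay outside the rule for named genes because it stayed under 1 FPKM (0.758 to 0.883 in adult LG). It differed by -0.34 ± 0.13 and -0.46 ± 0.13 (adjusted p = 0.046 and 0.014), and both calls were lost on own reads (0.02 and -0.13, adjusted p = 0.93 and 0.47) and that at E17.5 with the replicate block (adjusted p = 0.090).

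**Figure D3:**
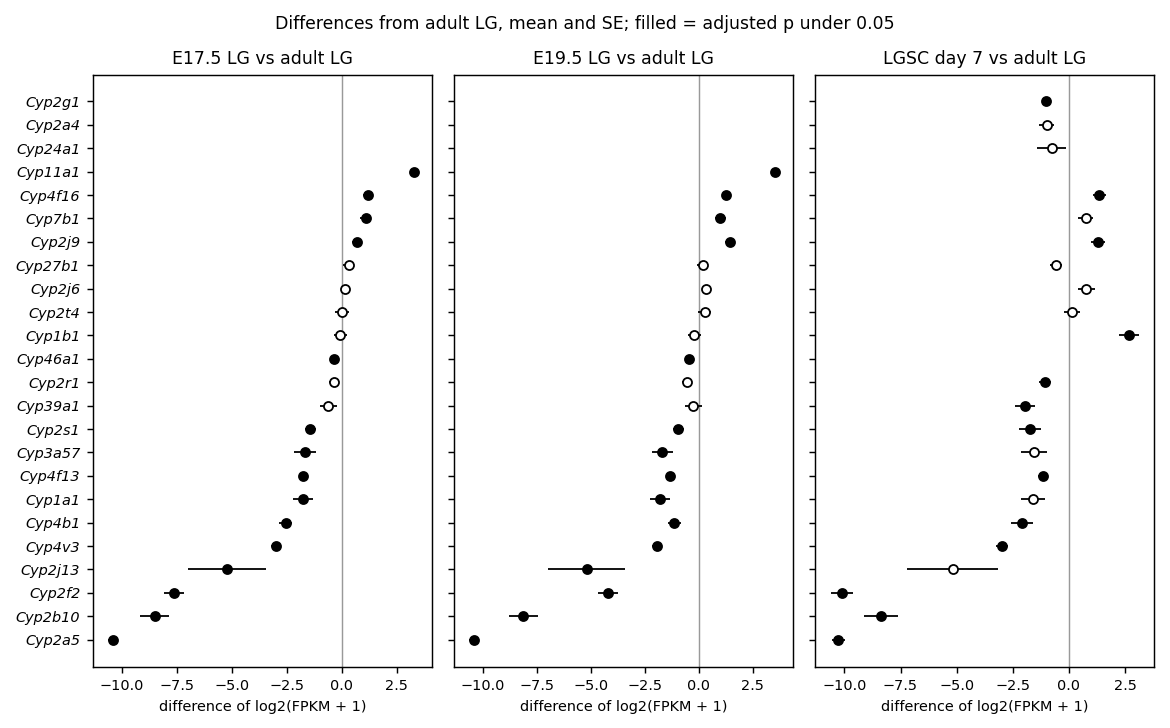
Difference from adult LG in log2(FPKM + 1), with its SE, for each tested member at E17.5, E19.5 and LGSC day 7 (panels); filled points have an adjusted p under 0.05 and members without a point did not pass the filter in that fit. Cyp2a5 lies farthest left in all 3 panels, Cyp2j13 lies left of Cyp2f2 at E19.5, and Cyp11a1 lies farthest right in both embryonic panels.

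Between E17.5 and E19.5, the comparison asked what changed before birth. Cyp2f2 was the only member of 21 called, beside 1.74% of all features called (1.11% higher and 0.624% lower). It rose by 3.39 ± 0.46 (adjusted p = 0.016), and the lowest E19.5 library (141 FPKM) was above the highest E17.5 library (27.2 FPKM). Summed ductal markers (5 genes, 199 to 299 against 603 to 811 FPKM) were also higher at E19.5 with no overlap. So was the sum of 6 basal or myoepithelial markers (141 to 298 against 1012 to 1098 FPKM). Only 2 of these 6 averaged 1 FPKM or more at each stage. Krt14, 1 of the 6, overlapped below 1 FPKM, at 0.292, 0.590 and 0.498 FPKM at E17.5 and 0.781, 0.569 and 0.362 FPKM at E19.5. The part of these markers in the Cyp2f2 result was not tested. The call was lost on own reads (3.28, adjusted p = 0.062) and when any of E17.5 replicates 1 and 2 or E19.5 replicates 1, 2 and 3 was left out (3.14 to 3.45, adjusted p 0.053 to 0.085). The difference itself stayed above 3 in these fits. Cyp4v3 and Cyp4b1, with 1.05 ± 0.21 and 1.41 ± 0.30 (adjusted p = 0.051 and 0.060), fell just short although their stages did not overlap, and 5 of 21 members had an unadjusted p under 0.05, against 15.3% of all features. Without adult replicate 3, which enters through the shared spread, 5 members were called higher: Cyp2f2, Cyp4b1, Cyp4v3, Cyp2j9 and Cyp4f13. In that fit 1064 of all 18400 features were called higher and 672 lower, in place of 207 and 116 of 18578. Members with a positive difference numbered 13 of 21, with a median of 0.20 against 0.02 over all features.

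Day 7 LGSCs were compared with adult LG to see which members of the mature gland the spheres carried. In this fit of 6 libraries 22 members were among the 17698 features tested, 3 were called higher and 10 lower, beside 35.2% of all features called (14.2% higher and 21.1% lower). The median over members was -1.12 against -0.08 over all features. Without adult replicate 2 the count fell to 7 (2 higher and 5 lower). Calls over all features fell there too, to 1572 higher and 2579 lower of 17627. With own-read scaling 4 were higher and 6 lower, where all features split into 5410 higher and 1883 lower in place of 2507 and 3731.

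The abundant adult members were close to 0 in the spheres. Cyp2a5 was 0.260, 0.0617 and 0 FPKM at day 7 and differed from adult LG by -10.27 ± 0.29 (adjusted p = 3.4e-05). Cyp2f2, at 2.93, 1.89 and 0.496 FPKM, differed by -10.12 ± 0.50 (adjusted p = 0.00010), and Cyp2b10, at 0, 0.303 and 0.0529 FPKM, by -8.35 ± 0.75 (adjusted p = 0.00064). Cyp2j13, with at most 0.0545 FPKM at day 7, was not called (-5.17 ± 2.02, adjusted p = 0.090). It was called when adult replicate 3 was left out (-7.74, adjusted p = 3.2e-05), in 1 fit of all 20 libraries (adjusted p = 0.0039) and when limma-voom was run with a block for replicate number (adjusted p = 0.0066). Acinar markers were also low at day 7, with none of 8 at a mean of 1 FPKM and a sum of 0.0371 to 0.424 FPKM. Their part in these results was not tested.

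A further 7 members were lower in day 7 spheres. Cyp4v3 was 1.08, 0.504 and 0.792 FPKM (-2.99 ± 0.27, adjusted p = 0.00064) and Cyp39a1 was 5.77, 5.24 and 5.67 FPKM (-1.97 ± 0.44, adjusted p = 0.016). Cyp4b1 (-2.10 ± 0.49), Cyp2s1 (-1.74 ± 0.50), Cyp4f13 (-1.16 ± 0.21) and Cyp2r1 (-1.08 ± 0.26) had adjusted p of 0.0069 to 0.036. None of the 4 was called on own reads (adjusted p 0.19 to 0.59), and the calls were lost without 1 library in 5 of 6 such fits for Cyp39a1, 4 each for Cyp2r1 and Cyp2s1 and 3 for Cyp4b1 (adjusted p 0.051 to 0.112). Cyp2g1, known from olfactory mucosa, was 1.35, 0.882 and 0.856 FPKM in adult LG and listed at 0 in all other libraries (-1.01 ± 0.18, adjusted p = 0.0070). Cyp2g1 is itself 1 of 5 genes listed for olfactory or nasal mucosa. Of the others only Omp reached 1 FPKM in adult LG, and Obp1a and Bpifb4 were listed at 0 there. The sum of the 5 was 2.87 to 4.45 FPKM in adult LG, 0.899 to 1.21 at E17.5 and 0.717 to 1.60 at E19.5. In LGSCs it was 1.05 to 2.91 FPKM at day 7 and 4.07 to 6.65 at day 14, so the list was not particular to adult LG.

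The 3 members that were higher in the spheres were Cyp1b1, Cyp4f16 and Cyp2j9. Cyp1b1, which oxidises oestradiol and polycyclic hydrocarbons and is a target of the aryl hydrocarbon receptor, was 0.162, 0.308 and 1.76 FPKM in adult LG and 9.56, 14.3 and 5.86 FPKM at day 7 (2.68 ± 0.44, adjusted p = 0.0050). All 11 LGSC libraries, with 3.53 to 14.3 FPKM, lay above all 9 tissue libraries, the highest of which had 1.76 FPKM. Cyp4f16 was 4.44, 6.87 and 5.00 FPKM (1.35 ± 0.28, adjusted p = 0.013) and Cyp2j9 was 5.53, 2.84 and 3.21 FPKM (1.29 ± 0.31, adjusted p = 0.020), above adult LG in each case. The Cyp2j9 call was lost in 4 of 6 fits that left out 1 library (adjusted p 0.056 to 0.068). Of the listed regulators, the aryl hydrocarbon receptor Ahr was called higher in day 7 LGSCs, from 7.197, 8.55 and 18.3 FPKM in adult LG to 66.1, 82.1 and 57.7 FPKM (2.59 ± 0.36, adjusted p = 0.0030), and Cyp1a1 was 0.0401 to 0.321 FPKM there. Its part in the Cyp1b1 result was not tested.

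Over the culture, no member was called between day 14 and day 7 (0 of 20, beside 0% of 15744 features). limma gave an unadjusted p under 0.05 for 1 member of 20, against 9.89% of all features. This member was Cyp1b1, which was lower at day 14 (5.14, 3.53 and 5.21 FPKM) than at day 7 (-0.90 ± 0.32, adjusted p = 0.47), with no overlap. The replicate block, and limma-voom on the reads recovered, also called 0 members and 0 features. limma-voom with the block called 72 features higher and 45 lower of 12112, with 0 members among them. In 1 fit of all 20 libraries 18 features of 18288 were called higher and 32 lower, again with 0 members.

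The slope over days 5 to 14 in 11 libraries called 0 of 19 members, beside 2.14% of all features called (0.648% rising and 1.5% falling). In the same limma fit 4 of the 19 members had an unadjusted p under 0.05, against 19.0% of all features. Cyp4f13 was nearest the threshold, with a rise of 0.08 ± 0.02 log2 units per day (adjusted p = 0.067). Its day 5 libraries had 1.91 and 1.95 FPKM and its day 7 libraries 3.44, 2.19 and 2.48 FPKM. Day 10 spheres had 3.90, 3.67 and 3.05 FPKM and day 14 spheres 4.14, 4.29 and 3.25 FPKM. With the replicate number as a block it was called (0.08 ± 0.02, adjusted p = 0.043), the only member of 19, beside 5.02% of all features, and without day 7 replicate 1 it was also called (adjusted p = 0.048). Cyp2f2 had a slope of 0.15 ± 0.05 per day (adjusted p = 0.14, and 0.081 with the block), which limma-voom called only together with the block (0.23, adjusted p = 0.036). Cyp1b1 and Cyp2j9 had slopes of -0.11 ± 0.04 and -0.10 ± 0.03 (adjusted p = 0.18 and 0.13). Without the 3 libraries that held Mucl2 the count was 0, in a fit that called only 1 of 15548 features. With so few calls, it cannot show whether a member changed.

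**Figure D4:**
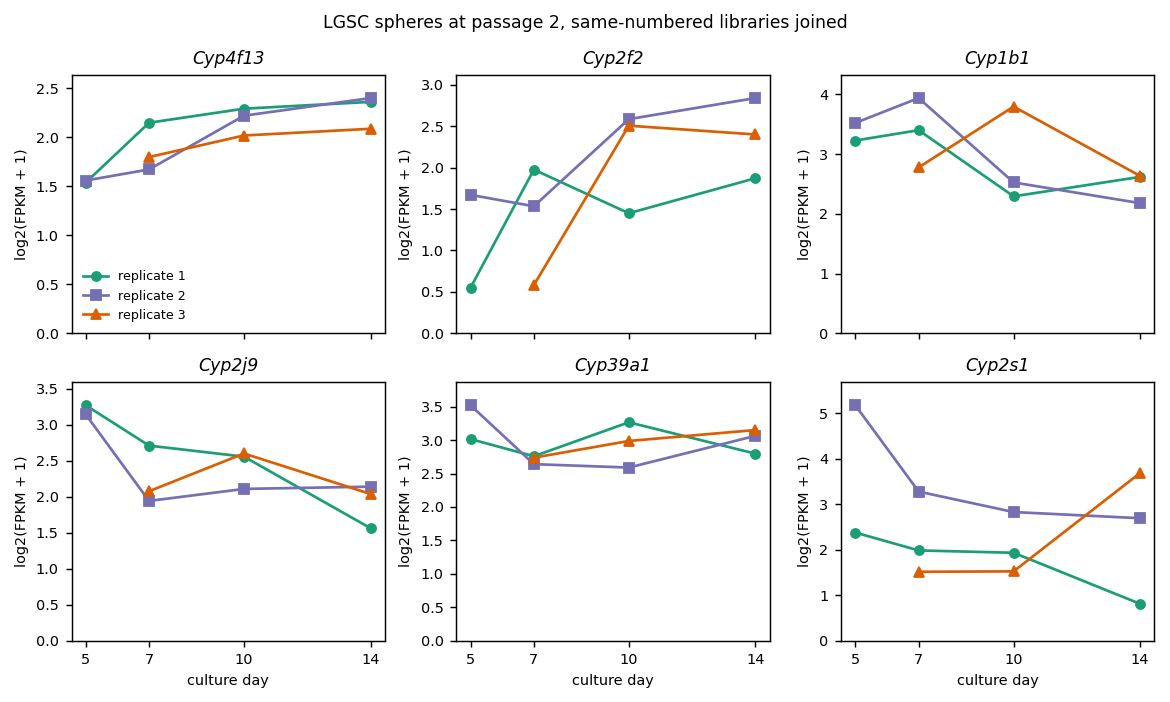
Level of 6 members as log2(FPKM + 1) against culture day in passage 2 LGSCs, with the libraries of 1 replicate number joined by a line. Cyp4f13 goes from 1.91 and 1.95 FPKM at day 5 to between 3.25 and 4.29 FPKM at day 14, while Cyp2s1 spreads from 0.750 to 35.2 FPKM between libraries.

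Some members differed widely between libraries of the same day, in part by replicate number, which paired the LGSC libraries. Xist also went by replicate number, low in replicate 1 of each day and high in the other LGSC libraries. Its part in these differences was not tested. Cyp2s1 was 35.2 FPKM in day 5 replicate 2 and 4.19 FPKM in day 5 replicate 1, and 0.750, 5.46 and 11.9 FPKM at day 14, with replicate 2 highest at days 5, 7 and 10. Cyp4b1 was 11.2 and 10.8 FPKM in day 5 replicate 2 and day 14 replicate 2 and 0.693 to 4.02 FPKM in the other 9 LGSC libraries. Cyp17a1, the steroid hydroxylase and lyase, was 4.10 FPKM in day 14 replicate 2 and at most 0.719 FPKM in every other library of the 20. Replicate 2 was highest at days 7, 10 and 14, while day 5 replicates 1 and 2 had 4 recovered reads each.

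Adult replicate 3 stood apart from the other 2 adult libraries in several members. Cyp2j13 was 265 and 184 FPKM in replicates 1 and 2 and 0.0559 FPKM in replicate 3. Cyp3a57, Cyp2b10 and Cyp39a1 were 21.6, 7.00 and 3.12 times lower in replicate 3 than the mean of the other 2. Cyp24a1, which breaks down active vitamin D, was listed at 0 in replicates 1 and 2 and was 4.16 FPKM in replicate 3, and Cyp1b1 was 7.52 times higher there, all on the deposited scale. Of 23 members with an adult mean of at least 0.5 FPKM, replicate 3 was above both others for 12, below both for 9 and between them for 2 on the deposited scale. Over 17125 features at that level it was above both for 38.7% and below both for 41.5%, and 4.15% were under 0.1 of the mean of replicates 1 and 2. On own reads it was above both for 18 members and below both for 5 (Cyp27b1, Cyp2b10, Cyp2j13, Cyp39a1 and Cyp3a57), against 79.8% and 10.5% of features. There Cyp3a57 was 9.10 times lower, Cyp2b10 2.95 times and Cyp39a1 only 1.32 times (12.9, 14.5 and 10.4). Cyp2b10 was 265, 264 and 89.7 and Cyp2a5 was 347, 634 and 1525. Replicate 3 also differed in the sex-linked transcripts, in the share of reads taken by the 10 most abundant genes (31.3% against 60.4% and 59.6%) and in the ductal marker Muc1 (47.2 against 0.883 and 0.807 FPKM), and their part in these values was not tested. A term for libraries with over 1 FPKM of Xist was chosen after seeing the data. With it, 3 members were called higher and 10 lower in day 7 LGSCs against adult LG. Of all 17698 features, 2062 were called higher and 3352 lower in that fit, in place of 2507 and 3731.

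**Figure D5:**
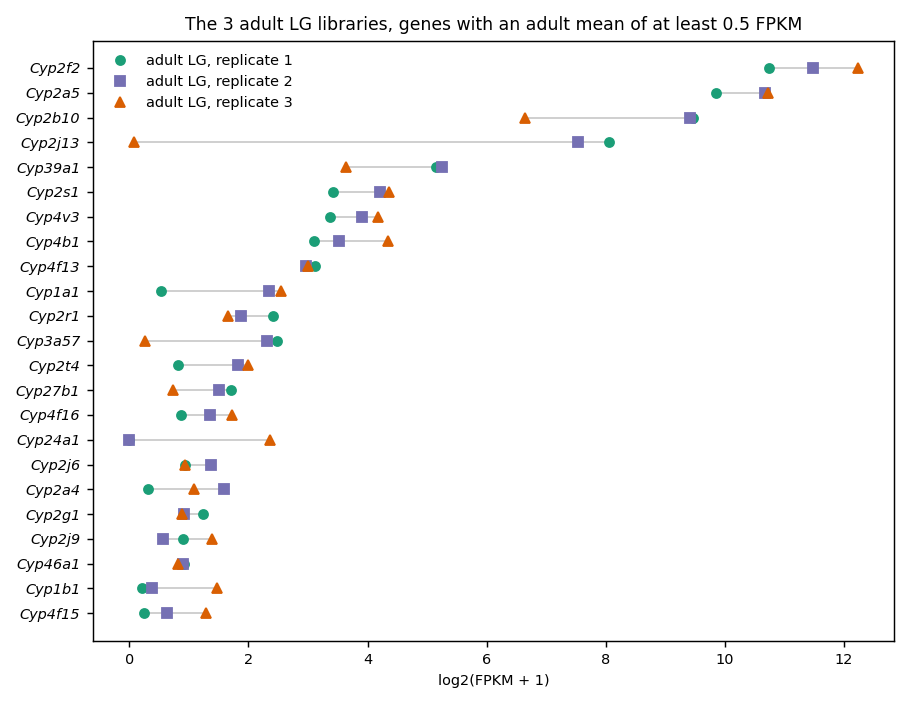
Level of the 23 members with an adult mean of at least 0.5 FPKM as log2(FPKM + 1) in the 3 adult LG libraries, with a grey line from the lowest to the highest. Cyp2j13, Cyp2b10, Cyp3a57 and Cyp24a1 have replicate 3 far from the other 2, and Cyp4f13 has all 3 close together.

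The genes that work with P450 enzymes were counted by list. Of 7 electron transfer partners tested, 1 was higher and 3 lower in each of E17.5 LG, E19.5 LG and day 7 LGSCs against adult LG, the 3 being Por, Cyb5a and Fdx1 each time. These 4 of 7 stand beside 54.0%, 54.2% and 35.2% of all features called, and at day 7 the count was 2 when any of the day 7 libraries was left out. On own reads the split turned to 3 higher and 2 lower, 4 and 2, and 2 and 1. Por was 306, 484 and 467 FPKM in adult LG, 53.9 to 57.6 at E17.5, 58.0 to 66.4 at E19.5 and 191 to 204 at day 7 (-2.86 ± 0.19, -2.70 ± 0.19 and -1.04 ± 0.24, adjusted p = 6.9e-06, 1.1e-05 and 0.016). All 3 groups lay below adult LG on the deposited scale. On own reads Por was 115, 188 and 423 in adult LG and 195 to 241 at day 7, so that the day 7 difference was gone (0.09, adjusted p = 0.88), while the embryonic stages stayed lower (-1.85 and -1.80, adjusted p = 0.0034 and 0.0043).

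Of 7 tested genes of haem synthesis and breakdown, 3 fell and 0 rose in E17.5 LG, beside 24.9% of all features lower and 29.1% higher. In E19.5 LG 2 fell and 1 rose, beside 23.9% lower and 30.3% higher. In day 7 LGSCs 1 fell and 0 rose, beside 21.1% and 14.2%. Only the shares called in either direction were below those of all features (54.0%, 54.2% and 35.2%) in all 3 comparisons. Alas1, the rate-limiting enzyme of haem synthesis, was lower in all 3 comparisons, from 44.6, 50.8 and 51.9 FPKM in adult LG to 1.55 to 1.64 at E17.5, 3.13 to 4.005 at E19.5 and 1.75 to 2.53 at day 7 (-4.27 ± 0.13, -3.49 ± 0.13 and -4.02 ± 0.20, adjusted p = 1.7e-07, 4.8e-07 and 0.00010). It was also called higher at E19.5 than at E17.5 (0.79 ± 0.13, adjusted p = 0.029), a call lost with the block, on own reads and in 6 fits without 1 embryonic library.

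The receptors and regulators gave 2 higher and 1 lower of 9 in E17.5 LG, and 4 and 2 in both E19.5 LG and day 7 LGSCs. The shares of all features called were 54.0%, 54.2% and 35.2% in these comparisons. At E17.5 the receptor count is a smaller share than among all features, and on own reads the count there was 5. Ppara, the fatty acid receptor, was lower each time, and the AHR target Tiparp and the sterol regulator Srebf2 were higher each time. The receptors Nr1i2 and Nr1i3, known to induce Cyp3a and Cyp2b genes, were at most 0.0297 FPKM in adult LG. Tested conjugation and detoxification genes, such as glutathione transferases, numbered 24. Of these 3 rose and 13 fell in E17.5 LG, beside 29.1% of all features higher and 24.9% lower. In E19.5 LG 3 rose and 11 fell, beside 30.3% and 23.9% of all features. In day 7 LGSCs 4 rose and 12 fell, beside 14.2% and 21.1%. The medians were -1.20, -0.67 and -1.37. On own reads 5 rose and 9 fell, 7 and 7, and 8 and 11, with medians of -0.39, 0.08 and -0.46, so the direction at E19.5 rests on the scale. Cholesterol synthesis genes went the other way, with 7 higher and 2 lower of 12 at both embryonic stages (medians 1.02 and 1.04). Of all features 29.1% and 30.3% rose there, and 24.9% and 23.9% fell. Day 7 LGSCs gave 9 higher and 0 lower of 14 (median 1.006), beside 14.2% and 21.1% of all features. With own-read scaling the embryonic falls were gone, leaving 9 and 8 of 12 higher and 0 lower. The day 7 split became 13 and 0 of 14. That scaling also moved all features upward, to 8501 higher and 2165 lower, 8081 and 2092, and 5410 and 1883. Between E17.5 and E19.5, 1 haem gene and 1 detoxification gene were called higher and none of the other lists. Between day 14 and day 7 none was called in any list, and over the culture days 1 detoxification gene, Mgst3, fell.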

How the data were processed

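RNA sequencing of 24 samples is listed, and 21 tables were used, 20 in comparisons. A day 5 LGSC replicate and the passage 6 and 20 libraries were not analysed here. The authors purified poly-A RNA and made NEBNext Ultra libraries. The submitters' processing notes name CASAVA 1.8, HISAT2 2.0.5, featureCounts 1.5.0-p3 and build NCBIM37, with no role or order. The authors deposited FPKM per gene, and the step that made them is not given in the sources used here. Counts were not among the tables. Reads recovered from the steps of the FPKM values were whole to within 0.01, up to 1000 reads, for 92.6% to 93.6% of genes.

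Symbols came from GENCODE M21, which held 52489 of 52636 Ensembl identifiers, and its coordinates were not printed since it is another build. Tests used limma 3.58.1 (R 4.3.3, trend) on log2(FPKM + 1), features averaging 0.5 FPKM or more in a fit, two-sided, with Benjamini-Hochberg adjustment over all features and a threshold of 0.05. The fits were checked on simulated data. Groups came from the sample labels. Replicate numbers paired the LGSC libraries (correlation of deviations 0.26 to 0.60 between days 7 and 14 and 0.26 to 0.72 over all days) but not the tissue ones (-0.08 to 0.06). Alternatives were a pseudocount of 0.1, no filter or 1 FPKM, own-read scaling, limma-voom on recovered reads, the block, other fits and each library left out.

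Genes named were the 8 highest members of each group, called members with at least 1 FPKM, Cyp2a5 and partners of at least 95% identity, measured here on coding sequence. The fixed lists were electron transfer partners, haem genes, receptors, detoxification and cholesterol synthesis genes. Members and lists were chosen with earlier results of these data known. Python 3.11.15, pandas 2.3.3, numpy 2.4.6 and matplotlib 3.10.9 were used.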

Additional observations from a re-analysis of the deposited data

Results flagged for a closer look

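A library of LGSC spheres of passage 10 at day 7, outside every comparison and in a table with fewer features than the others, held 4 members at over 10 FPKM that were under 1% of that level in each of the other 20 libraries. Cyp51, which demethylates lanosterol in cholesterol synthesis, was 64.3 FPKM there and at most 0.188 FPKM elsewhere. Cyp4f39, a fatty acid hydroxylase of skin, was 16.7 FPKM, Cyp4f17 was 12.8 FPKM and Cyp3a13 was 11.8 FPKM, and these 3 were listed at 0 in the 20 libraries. Of 5332 features at 10 FPKM or more in the passage 10 library, 961 (18.02%) were under 1% of their level in each of the 20, beside 4 of 7 members. With 1 library the difference has no replicate check, and the part of the unlike tables in it was not tested.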

How the results depend on the processing

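The counts of members called against adult LG kept within 1.5 times their value under all planned settings that keep every library. At E17.5 they were 12 to 18 against 15, at E19.5 12 to 21 against 15, and at LGSC day 7 10 to 17 against 13. These settings tested and called unlike numbers of features. The 18 and 21 came without a filter, with 6598 features higher and 5007 lower of 39835, and 6325 and 4835. With the filter these were 5405 and 4634 of 18578, and 5637 and 4440. The 17 came with limma-voom and the block, with 1817 and 3095 of 13677 features, in place of 2507 and 3731 of 17698. Leaving out 1 library gave 11 to 16, 12 to 17 and 7 to 14, with 7 without adult replicate 2. That fit called 1572 features higher and 2579 lower of 17627. Between E19.5 and E17.5 the count of 1 became 2 with a pseudocount of 0.1, with a filter of 1 FPKM, with limma-voom and the replicate block, and with all 20 libraries in 1 fit. It was 3 with limma-voom alone and 0 on own reads, and 0 to 5 without 1 library. The 5 came without adult replicate 3, where 1064 of all features were called higher and 672 lower. The slope over culture days, with 0 members, gave 1 with the replicate block and 1 on log2 of the culture day. It gave 3 with limma-voom and the block (Cyp4f13, Cyp2f2 and Cyp17a1), and 0 to 1 without 1 library. Features called also varied, with 101 rising and 233 falling of 15584 in the unchanged fit. They were 330 and 453 with the block and 93 and 272 on log2 of the day. With limma-voom and the block they were 594 and 496 of 11970, and without day 5 replicate 1 only 7 and 4 of 15673. Day 14 against day 7 gave 0 members in every fit run. The replicate numbers paired the LGSC libraries only. In the tissue fits, where the numbers are only names, it gave 14, 15 and 1, and against day 7 LGSCs 12, where Cyp4b1 was lost (-2.10, adjusted p = 0.051). Cyp39a1 at E19.5 reversed to 0.61 on own reads. Of the other values of named members, 1670 kept direction and side of the threshold, 77 lost the call and 48 gained it. Of the counts for the gene lists under other settings, 455 stayed within 1.5 times and 50 did not, 23 of them between E19.5 and E17.5 and 16 in the slope, where the counts were 0 or 1. The cause was not tested. Depth was 6434734 to 9258020 reads, so that values below 0.1 FPKM rest on few reads.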

Other observations

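In the same passage 10 library 14 members were at 1 FPKM or more. Cyp7b1 was 38.3 FPKM, Cyp2j6 26.1 FPKM and Cyp2f2 14.9 FPKM, each above the 11 passage 2 LGSC libraries, where the highest values were 4.20, 5.13 and 6.16 FPKM. Cyp1b1 was 8.45 FPKM, within the passage 2 range of 3.53 to 14.3 FPKM, and Cyp11a1 was listed at 0. Cyp2a5, Cyp2b10 and Cyp2j13 were 0.0406, 0.0398 and 0.0269 FPKM. Cyp20a1, the orphan member, was 7.91 FPKM in this library and at most 0.164 FPKM in the other 20. The values come from 1 library and a table with other features and were not tested.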
